A study of Mus musculus with 10 samples.

Results

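The antioxidant and glutathione genes of AtT20 cells were compared between a line with reduced *Creb3l1* and its control line. Members were chosen by symbol: the glutathione S-transferase genes (symbols starting with Gsta, Gstm, Gstp, Gstt, Gsto, Gstk or Mgst), the genes named Gpx, Prdx, Sod or Ggt with a digit, and *Cat*, *Gclc*, *Gclm*, *Gss*, *Gsr*, *Chac2*, *Ggct*, *Oplah*, *Txn1*, *Txn2*, *Txnrd1*, *Txnrd2*, *Txnip*, *Srxn1*, *Nqo1*, *Hmox1*, *Hmox2*, *Nfe2l2* and *Keap1*. The rule took 71 of the 53801 genes in the table and used no measured value, but it was chosen with earlier results of these data known. AtT20/D16v-F2 cells come from a mouse pituitary tumour and resemble corticotrophs, the cells that make ACTH from pro-opiomelanocortin. Both lines were stably transduced with a lentivirus, which expressed an shRNA against *Creb3l1*, the gene of an endoplasmic reticulum-bound transcription factor, in the knockdown line and a non-targeting shRNA in the control line. Each line gave 5 libraries of poly(A) RNA from cells with no further treatment stated. The study's methods call its replicates biological, without saying which unit was repeated for these libraries or whether a line was 1 clone, so a difference between the shRNAs and a difference between the lines cannot be told apart.

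Glutathione is a small peptide with a free thiol. It is built by glutamate-cysteine ligase and glutathione synthetase, spent by glutathione peroxidases on peroxides and by glutathione S-transferases on reactive compounds, and returned to its reduced form by glutathione reductase with NADPH. A second thiol system runs in parallel, in which thioredoxin and its reductase serve the peroxiredoxins. Superoxide dismutases turn superoxide into hydrogen peroxide, which catalase, the peroxiredoxins and the glutathione peroxidases remove. NRF2, the product of *Nfe2l2*, is held down by KEAP1 and, when released, induces many genes of both systems through the antioxidant response element. Secretory cells also make hydrogen peroxide in the endoplasmic reticulum when disulfide bonds are formed in hormones and their precursors.

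The libraries held between 17420698 and 22205107 counted reads. *Creb3l1* had 3531 to 3864 normalised counts (reads scaled to a common library size) in the control libraries and 1014 to 1159 in the knockdown libraries. The 6 corticotroph markers examined (*Pomc*, *Tbx19*, *Pcsk1*, *Crhr1*, *Neurod1* and *Pitx1*) were all present at 10 normalised counts or more, with a summed level of 150425 to 161538 in control and 108550 to 115412 in knockdown libraries. Most of that sum was *Pomc* (log2 fold change -0.51, adjusted p = 1.2e-16), and *Tbx19* (-0.27, adjusted p = 1.2e-13) and *Pcsk1* (-0.46, adjusted p = 1.2e-19) fell as well. In contrast, *Neurod1* (0.62, adjusted p = 3.2e-19) and *Pitx1* (0.36, adjusted p = 0.0073) rose, and *Crhr1* was not called (-0.11, adjusted p = 0.72). The decrease of *Pomc* differs from the study's quantitative PCR, which found its mRNA unchanged in the knockdown lines. Of the 12 genes of other pituitary cells, 8 stayed under 10 normalised counts in every library, *Gh*, *Prl* and *Pou1f1* among them, and the sum was 484 to 566 in control and 566 to 642 in knockdown libraries. The rest were present. *Pcsk2* (0.25, adjusted p = 0.0016) and *Sox2* (0.33, adjusted p = 0.0048) rose, and *Nr5a1* was not called (-0.32, adjusted p = 0.041). *Pax7* had a mean of 14.5 in control and 5.90 in knockdown libraries and was not tested. Of the 4 endothelial and blood genes, 3 were at 0 (*Cdh5*, *Ptprc* and *Hbb-bs*), and the sum was 10.6 to 18.3 in control and 4.28 to 7.45 in knockdown libraries. All of that sum was *Pecam1*, which fell (-1.08, adjusted p = 0.0063). *Gm42418*, a gene for non-coding RNA, held 4.13% of the reads of control replicate 3. In bulk RNA, fewer cells with a transcript and less of it per cell cannot be told apart.

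Antioxidant genes moved in both directions in the knockdown line, and mostly by small amounts. *Sod3*, which encodes the superoxide dismutase of the extracellular space, was 8-fold higher, and *Ggt1*, which encodes the cell surface enzyme that starts the breakdown of extracellular glutathione, was 3.62-fold lower. Below these, glutathione S-transferase genes, catalase and *Sod1* fell, whereas *Gpx3*, *Oplah*, *Txnrd1*, *Nfe2l2* and *Prdx6* rose. Of the 71 members 51 had enough reads to be tested. Of these, 34 passed an adjusted p of 0.01 in edgeR's quasi-likelihood test, 10 in the higher and 24 in the lower direction, which is 66.7% of those tested, where 40.7% of the 14336 genes tested in all were called, 20.6% as higher and 20.1% as lower. Negative log2 fold changes mean lower in the knockdown line, and values given in brackets after a gene are log2 fold changes. The median was -0.19 over the tested members and -0.0025 over all genes tested. The control and knockdown libraries did not overlap in 29 of the 51, against 36.0% of all genes tested. A change of at least 1.5-fold was found for 2 members, *Sod3* and *Ggt1*, against 7.73% of all genes tested. The tested members are those with reads in either line, so these counts say nothing of the 20 that were not tested.

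**Figure D1:**
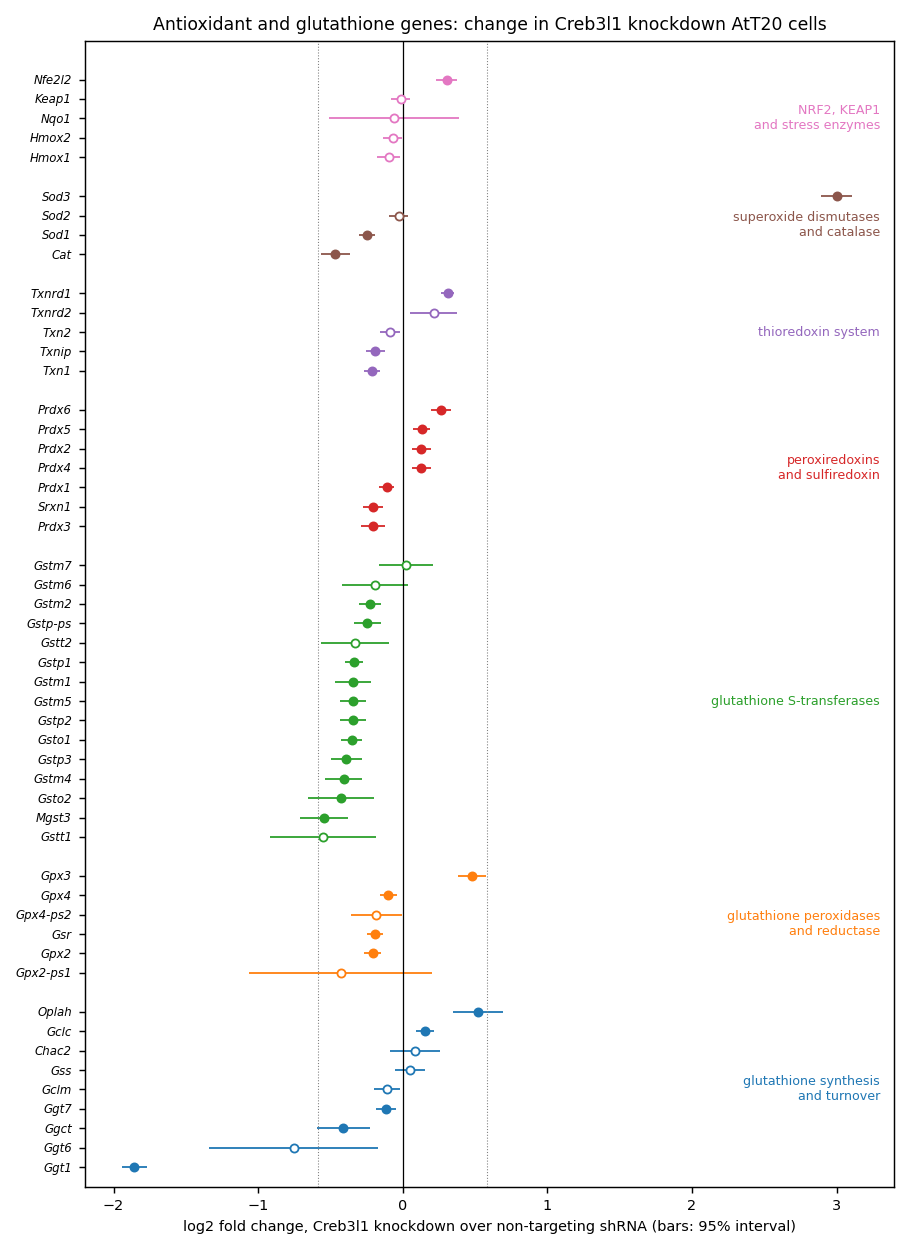
Log2 fold change of the 51 tested members, knockdown over control, grouped by role. Points are edgeR estimates with 95% intervals, filled where the adjusted p is under 0.01, and dotted lines mark 1.5-fold. Of the filled points, *Sod3* at 3.001 and *Ggt1* at -1.86 stand outside the dotted lines, and most other filled points lie to the left of 0.

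Among the regulators, *Nfe2l2* rose and its inhibitor showed no detected change. *Nfe2l2* had 1061, 1136, 1156, 1181 and 1072 normalised counts in control replicates 1 to 5 and 1363, 1345, 1458, 1397 and 1361 in knockdown replicates 1 to 5. Every knockdown library was above every control library, with a log2 fold change of 0.30 (SE 0.037, adjusted p = 4.3e-09). *Keap1*, whose product carries NRF2 to degradation, had 1615, 1682, 1672, 1725 and 1619.9 in control and 1609, 1698, 1692, 1609.9 and 1624 in knockdown libraries. These ranges overlapped, and the log2 fold change was -0.015, with a 95% interval of -0.078 to 0.048 (adjusted p = 0.73). A gene of the other strand covers 10.9% of the exon bases of *Keap1*.

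*Nqo1* and *Hmox1* are the targets of NRF2 that are most often used as its readout. *Nqo1*, a quinone reductase, was near the limit of detection, with 17.1, 21.2, 29.3, 21.6 and 20.7 normalised counts in control and 18.4, 18.2, 19.1, 24.6 and 23.6 in knockdown libraries. Its interval of -0.51 to 0.39 is wide (adjusted p = 0.85), so a change of the size seen for *Nfe2l2* was not detectable at this depth. *Hmox1*, which encodes the inducible heme oxygenase, had 873, 887, 951, 970.0 and 917 in control and 820.5, 900.1, 891, 845 and 845 in knockdown libraries. The libraries overlapped, and a log2 fold change of -0.10 (SE 0.042, adjusted p = 0.049) missed the threshold of 0.01. *Hmox2*, the constitutive form, had a log2 fold change of -0.071 (adjusted p = 0.086), and 40.2% of its exon bases are also covered by *Cdip1* on the other strand.

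Promoter windows from RefSeq (GRCm38.p6), from 250 bases before to 50 after the start of transcription, were read for the core of the antioxidant response element, TGACNNNGC, and for the G-box words CACGTG and GACGTG, on both strands. GACGTG can lie within the element core, so these are not independent. A window was at hand for 41 of the 51 tested members, and where several starts were listed the first was read. The 10 without one included *Sod3*, *Oplah*, *Prdx6* and *Gclc*, which rose, and *Gsr* and *Gstp-ps*, which fell. The others, *Gstt2*, *Hmox1*, *Gpx2-ps1* and *Gpx4-ps2*, were not called. The element core was present in 8 of these (19.5%), against 12.5% of 27025 promoters. These were *Nfe2l2* itself, which rose, *Ggct*, *Ggt1*, *Gstm5*, *Prdx1*, *Sod1* and *Srxn1*, which fell, and *Gclm*, which was not called. The core also occurs at another listed start of *Txnrd1*, which rose, and of *Gstm7*, which was not called, but not at their first starts. With windows missing or not read, the directions of the 8 do not stand for all tested members. CACGTG was present in 1 of the 41 (*Prdx4*), against 7.24% of promoters, and GACGTG in 3 (*Gclm*, *Gstp3* and *Gstt1*), against 6.35%. CACGTG also occurs at another listed start of *Ggt1*, which fell, but not at its first start. The windows below, each written 5′ to 3′ on the strand of its gene, belong to members of both directions on which the results turn. Capitals mark the element core on either strand, or CACGTG in the window of *Prdx4*, and the window of *Gpx3* has none of the 3 words.
*Nfe2l2*, chr2:75704614-75704913, minus strand: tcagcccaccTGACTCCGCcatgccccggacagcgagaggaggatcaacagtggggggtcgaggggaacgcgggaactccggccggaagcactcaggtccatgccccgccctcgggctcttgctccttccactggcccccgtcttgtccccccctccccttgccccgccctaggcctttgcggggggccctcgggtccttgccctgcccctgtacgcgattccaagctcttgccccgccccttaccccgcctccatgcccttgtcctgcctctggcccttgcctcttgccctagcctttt
*Ggt1*, chr10:75563882-75564181, plus strand: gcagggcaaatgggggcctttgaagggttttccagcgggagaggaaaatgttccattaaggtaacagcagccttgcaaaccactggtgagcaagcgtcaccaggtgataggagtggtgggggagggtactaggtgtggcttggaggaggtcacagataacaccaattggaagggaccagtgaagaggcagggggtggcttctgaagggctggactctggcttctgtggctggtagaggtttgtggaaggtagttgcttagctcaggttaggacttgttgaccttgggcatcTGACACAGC
*Sod1*, chr16:90220512-90220811, plus strand: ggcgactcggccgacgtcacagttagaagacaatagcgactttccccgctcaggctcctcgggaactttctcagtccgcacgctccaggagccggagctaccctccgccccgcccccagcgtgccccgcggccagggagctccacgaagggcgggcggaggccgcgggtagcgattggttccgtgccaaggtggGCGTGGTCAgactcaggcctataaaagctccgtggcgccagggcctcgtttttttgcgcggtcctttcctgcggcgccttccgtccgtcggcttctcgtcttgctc
*Srxn1*, chr2:152105274-152105573, plus strand: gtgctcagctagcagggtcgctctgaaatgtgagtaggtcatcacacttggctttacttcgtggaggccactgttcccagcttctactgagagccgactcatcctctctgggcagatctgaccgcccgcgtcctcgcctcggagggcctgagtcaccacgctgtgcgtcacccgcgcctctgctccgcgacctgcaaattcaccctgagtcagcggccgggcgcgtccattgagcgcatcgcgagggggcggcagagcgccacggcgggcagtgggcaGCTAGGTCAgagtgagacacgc
*Prdx4*, chrX:155338411-155338710, minus strand: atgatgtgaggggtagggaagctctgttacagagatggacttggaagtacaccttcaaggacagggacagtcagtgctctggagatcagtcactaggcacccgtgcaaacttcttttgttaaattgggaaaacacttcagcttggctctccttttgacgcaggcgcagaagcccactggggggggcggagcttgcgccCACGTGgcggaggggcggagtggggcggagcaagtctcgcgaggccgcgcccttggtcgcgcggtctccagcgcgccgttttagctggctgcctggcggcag
*Gpx3*, chr11:54902604-54902903, plus strand: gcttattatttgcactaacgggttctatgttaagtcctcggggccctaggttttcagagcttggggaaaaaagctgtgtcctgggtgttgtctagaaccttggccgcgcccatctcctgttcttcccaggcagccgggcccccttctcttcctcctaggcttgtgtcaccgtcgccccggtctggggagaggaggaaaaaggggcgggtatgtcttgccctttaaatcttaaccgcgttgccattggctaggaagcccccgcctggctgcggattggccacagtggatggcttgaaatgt
*Ggt1* has 4 listed starts, of which the first is shown. A match is a description of the letters, and binding was not measured.

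The genes that build glutathione differed little between the lines. *Gclc* encodes the catalytic subunit of glutamate-cysteine ligase, the rate-limiting enzyme of the pathway. It had 2237, 2280.4, 2284, 2206 and 2314 normalised counts in control and 2563, 2506, 2428, 2661 and 2435 in knockdown libraries. Although the knockdown libraries were all higher, the difference was only 1.11-fold, with a log2 fold change of 0.15 (SE 0.031, adjusted p = 5.8e-05). *Gclm*, the modifier subunit of the same enzyme, had 798, 823, 810.5, 832 and 710.0 in control and 714, 749, 757, 717 and 743 in knockdown libraries. Control replicate 5 lay apart from the other 4 control libraries and below every knockdown library, so the lines overlapped, and a log2 fold change of -0.11 (SE 0.045, adjusted p = 0.038) missed the threshold. Without that library the log2 fold change was -0.15 (adjusted p = 0.0059), and with GC and length offsets it was -0.21 (adjusted p = 0.00019). *Gss*, glutathione synthetase, had 492, 489, 526, 546 and 478 in control and 499, 501, 514, 538 and 566 in knockdown libraries. Its libraries overlapped, and the 95% interval of the log2 fold change was -0.055 to 0.16 (adjusted p = 0.46), with 15.4% of its exon bases covered by genes of the other strand.

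The largest decrease among the members was in a gene of glutathione breakdown. *Ggt1*, on chromosome 10 (75561604 to 75586200, plus strand, GRCm38), had 1459, 1403, 1324, 1394 and 1430.3 normalised counts in control and 356, 409.9, 385, 408 and 381 in knockdown libraries. The highest knockdown library was far below the lowest control library, with a log2 fold change of -1.86 (SE 0.045, adjusted p = 3.5e-31). The other gamma-glutamyltransferase genes were scarcer or changed less. *Ggt7* fell slightly (-0.12, adjusted p = 0.0041), a call that was lost without control replicate 2, 4 or 5, without knockdown replicate 1 or 4, with library totals only and with GC and length offsets, with adjusted p from 0.010 to 0.15. *Ggt6*, with 7.35 to 27.3 normalised counts, had -0.76 (adjusted p = 0.033), which became -0.96 (adjusted p = 0.0056) without control replicate 4. *Ggt5* had 0 to 3 reads and was not tested.

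Inside the cell, glutathione and its fragments are cleaved by other enzymes. *Chac2*, a glutathione-specific cyclotransferase that acts slowly, had 178, 180.1, 188, 156 and 205 normalised counts in control and 187, 183, 190.4, 226 and 173 in knockdown libraries. These overlapped, with a log2 fold change of 0.082 (adjusted p = 0.46). *Ggct*, which forms 5-oxoproline from gamma-glutamyl amino acids, fell (-0.41, SE 0.093, adjusted p = 0.00026). *Oplah*, the oxoprolinase that turns 5-oxoproline back into glutamate, rose from 169 ± 12.2 to 242 ± 34.1 normalised counts (SD, n = 5), with a log2 fold change of 0.52 (SE 0.088, adjusted p = 4e-06). Knockdown replicate 3 was the highest for *Oplah* at 301 and the other 4 knockdown libraries lay between 213 and 237, all above the control libraries at 153 to 181. Exons of the other strand cover 11.7% of the exon bases of *Oplah*.

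**Figure D2:**
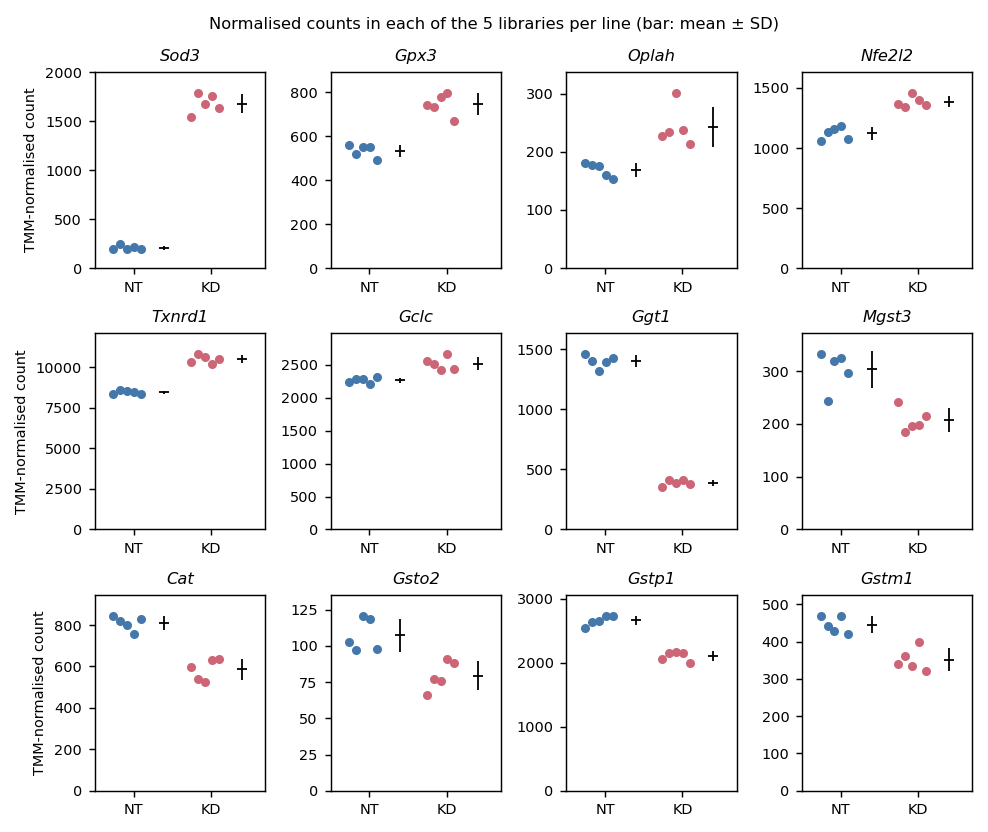
TMM-normalised counts in the 5 control (NT) and 5 knockdown (KD) libraries for 12 members, each panel with its own linear axis from 0. Points are libraries in replicate order, and the cross is the mean with its SD. The points of the lines do not overlap in any of the 12 panels, and relative to the level the gap is widest for *Sod3* and *Ggt1*.

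Of the glutathione peroxidases, the secreted form rose and the intracellular forms fell. *Gpx3*, the peroxidase of the extracellular fluid, went from 533 ± 28.2 to 744 ± 49.7 normalised counts (SD, n = 5), with a log2 fold change of 0.48 (SE 0.05, adjusted p = 8.8e-11). *Gpx2*, a cytosolic peroxidase first known from the gut, fell (-0.21, SE 0.03, adjusted p = 1.2e-07). *Gpx4*, which reduces lipid hydroperoxides in membranes and guards against ferroptosis, had 3175, 3439.7, 3511, 3479.8 and 3321 in control and 3059.6, 3306, 3136, 3207 and 3072 in knockdown libraries. The lines overlapped and the difference was small, with a log2 fold change of -0.10 (SE 0.03, adjusted p = 0.0043). The call was lost without control replicate 2, 3 or 4, without knockdown replicate 1, 3 or 5 (adjusted p from 0.015 to 0.022) and with library totals only, and with GC and length offsets the log2 fold change was 0.024 (adjusted p = 0.56). Of its 75-base words 55.3% also occur in the transcribed pseudogene *Gpx4-ps2*, so reads may have been split between these genes. *Gpx4-ps2* and *Gpx2-ps1* were not called, at -0.18 and -0.43.

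Glutathione reductase, *Gsr*, restores reduced glutathione with NADPH. It had 3190.4, 3231, 3087, 3228 and 3249 normalised counts in control and 2742, 2953, 2694, 2835 and 2763 in knockdown libraries. The lines did not overlap, and a log2 fold change of -0.19 (SE 0.029, adjusted p = 3.8e-07) was found.

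The level in RPKM, reads scaled for exon length and library size, sets the peroxidases side by side. The length joins all annotated exons of a gene and can exceed that of the transcript expressed. Comparisons between genes depend on it. *Gpx2*, with 3222 bases, had a mean of 4427 normalised counts in control libraries, and *Gpx4*, with 1724 bases, had 3385. On the RPKM scale *Gpx4* made up 54.1% ± 0.778 (SD, n = 5) of the summed level of *Gpx2*, *Gpx3* and *Gpx4* in control and 53.4% ± 0.832 in knockdown libraries. The share of *Gpx3* was 8.11% ± 0.474 in control and 12.0% ± 0.615 in knockdown libraries, and that of *Gpx2* was 37.8% ± 0.613 and 34.7% ± 0.570. These shares are levels of RNA and were not tested.

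Every glutathione S-transferase gene that was called fell. Of the 26 genes 15 were tested, and 11 of these fell and 0 rose, with a median log2 fold change of -0.34. Among all genes tested 20.1% fell. These enzymes join glutathione to reactive compounds, and the pi, mu, omega and theta classes are cytosolic, whereas the MGST proteins sit in membranes. In the pi class, all 4 genes fell: *Gstp1* (-0.34), *Gstp2* (-0.35), *Gstp3* (-0.39) and the pseudogene *Gstp-ps* (-0.25). *Gstp1* and *Gstp2* share 57.7% and 68.2% of their 75-base words with other genes, and *Gstp-ps* shares 60.9%, mostly with each other, so the class cannot be read as 4 separate measurements. With GC and length offsets the call of *Gstp-ps* was lost (-0.11, adjusted p = 0.047), and the decreases of *Gstp1* (-0.20), *Gstp2* (-0.21), *Gstp3* (-0.25) and, in the mu class, *Gstm2* (-0.12) were smaller by more than 1.5 times but still called. *Gstp1* was the most abundant of the family, at 84.7 ± 2.46 RPKM in control and 67.1 ± 2.48 in knockdown libraries (SD, n = 5).

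In the mu class, 4 of 6 tested genes fell: *Gstm4* (-0.41), *Gstm5* (-0.34), *Gstm1* (-0.34) and *Gstm2* (-0.23). *Gstm6* (-0.19, adjusted p = 0.17) and *Gstm7* (0.024, adjusted p = 0.86) were not called. A gene of the other strand covers 13.9% of the exon bases of *Gstm5*. Both omega genes fell, *Gsto1* at -0.35 and *Gsto2* at -0.43. The call of *Gsto2*, with 66.2 to 121 normalised counts, was lost without knockdown replicate 1 (-0.37, adjusted p = 0.010) and with GC and length offsets. *Mgst3*, a microsomal transferase with peroxidase activity, had a larger decrease (-0.55, SE 0.084, adjusted p = 7.1e-07), though control replicate 2, at 244, was close to the highest knockdown library, at 242.

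The theta genes *Gstt1* (-0.55, adjusted p = 0.013) and *Gstt2* (-0.33, adjusted p = 0.019) missed the threshold at 23.9 to 113 normalised counts. *Gstt1* passed without control replicate 5 (-0.63, adjusted p = 0.0075) or knockdown replicate 2 (-0.67, adjusted p = 0.0038) and with a filter of at least 10 counts in every library (adjusted p = 0.0093), and *Gstt2* without control replicate 4 (-0.39, adjusted p = 0.0088). A decrease of the size seen in the other classes is inside both intervals, -0.92 to -0.18 and -0.56 to -0.10.

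All 7 tested genes of the peroxiredoxin group were called, 4 higher and 3 lower, and all changes were small. Among all genes tested 40.7% were called, 20.6% as higher and 20.1% as lower. The peroxiredoxins remove hydrogen peroxide with a reactive cysteine, and sulfiredoxin repairs that cysteine when it is over-oxidised. *Prdx1*, the most abundant of them, had 7246, 7716, 7695, 8165 and 7858 normalised counts in control and 7205, 7205, 7106, 7303 and 7011 in knockdown libraries. Only control replicate 1 lay within the knockdown range, and a log2 fold change of -0.11 (SE 0.026, adjusted p = 0.00053) was found. *Srxn1*, sulfiredoxin, had 1609, 1796, 1692, 1686 and 1629 in control and 1414, 1467, 1516, 1486 and 1407 in knockdown libraries. The lines did not overlap, with a log2 fold change of -0.21 (SE 0.034, adjusted p = 2.7e-06).

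The mitochondrial *Prdx3* fell (-0.21), and *Prdx6* (0.26), *Prdx5* (0.13), *Prdx2* (0.13) and *Prdx4* (0.13) rose. *Prdx6* differs from the others in that it has 1 reactive cysteine and also acts on phospholipids, and *Prdx4* is the peroxiredoxin of the endoplasmic reticulum. The increase of *Prdx4* was lost as a call without control replicate 2 (0.11, adjusted p = 0.010) or knockdown replicate 4 (0.098, adjusted p = 0.013). With GC and length offsets the increases of *Prdx2* (0.20), *Prdx4* (0.20) and *Prdx5* (0.22) were larger. Trmt112 on the other strand covers 19.1% of the exon bases of *Prdx5*, and *Junb* and *Rnaseh2a* on the other strand cover 11.5% of those of *Prdx2*.

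In the thioredoxin system the cytosolic reductase rose and its substrate fell. *Txnrd1*, a selenoenzyme that reduces thioredoxin with NADPH and a target of NRF2, had 8386, 8586, 8555, 8460.1 and 8368 normalised counts in control and 10314, 10812, 10614, 10235 and 10546 in knockdown libraries. The lines were clearly apart, with a log2 fold change of 0.31 (SE 0.023, adjusted p = 4.2e-15). *Txn1*, cytosolic thioredoxin, had 4164, 4275, 4216, 4502 and 4225 in control and 3753, 3642, 3607, 3754 and 3685 in knockdown libraries. These did not overlap either, with a log2 fold change of -0.21 (SE 0.027, adjusted p = 1.2e-08). Its change was -0.14 with GC and length offsets. *Txnip*, which binds and inhibits thioredoxin, also fell (-0.19, adjusted p = 3.6e-06), and 19.4% of its exon bases are covered on the other strand.

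The mitochondrial pair was not called. *Txn2* had a log2 fold change of -0.087 (adjusted p = 0.037) and *Txnrd2* of 0.21 (adjusted p = 0.036). *Txnrd2* passed without control replicate 5 (0.28, adjusted p = 0.0050), without knockdown replicate 5 (0.27, adjusted p = 0.0044), with no filter on low counts and with GC and length offsets.

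Among the superoxide dismutases the extracellular form rose from a low level. *Sod3*, on chromosome 5 (52363791 to 52371418, plus strand, GRCm38), had 197, 243, 193, 217 and 196 normalised counts in control and 1539.9, 1786, 1669, 1757 and 1636 in knockdown libraries. The lowest knockdown library was more than 6 times the highest control library, with a log2 fold change of 3.001 (SE 0.054, adjusted p = 1.5e-33). *Sod1*, the copper-zinc enzyme of the cytosol, had 6756, 6786, 7105, 7329.6 and 6738 in control and 5611, 6115, 5865, 5946 and 5735 in knockdown libraries. It fell without overlap, with a log2 fold change of -0.25 (SE 0.028, adjusted p = 8.2e-10). *Sod2*, the manganese enzyme of mitochondria, had 1441, 1437, 1447, 1423 and 1413 in control and 1376, 1428, 1328, 1451 and 1432 in knockdown libraries. These overlapped, with a log2 fold change of -0.029 (SE 0.034, adjusted p = 0.5), and of the alternatives *Sod2* was called only with GC and length offsets (-0.13, adjusted p = 0.0020).

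Per kilobase of exon, *Sod3* rose from 2.76 ± 0.28 to 22.1 ± 1.3 RPKM and *Sod1* fell from 86.2 ± 3.27 to 72.7 ± 2.4 RPKM (SD, n = 5). The share of *Sod3* in the summed level of the 3 dismutases was thus 2.87% ± 0.298 in control and 21.7% ± 0.496 in knockdown libraries, and that of *Sod1* was 89.8% ± 0.433 and 71.5% ± 0.451. These shares depend on annotated exon length, which was 3970 bases for *Sod1*, 10008 for *Sod2* and 3738 for *Sod3*. Catalase, *Cat*, destroys hydrogen peroxide in peroxisomes. It had 846, 819, 799, 758 and 831 normalised counts in control and 596, 537, 525, 632 and 636 in knockdown libraries. Every knockdown library was lower, with a log2 fold change of -0.47 (SE 0.05, adjusted p = 2.5e-10).

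Members were also arranged by where their products act, an arrangement made after the values were seen and given as a description. Among all genes tested 20.6% rose and 20.1% fell. Of the 7 members whose products are secreted or lie in the endoplasmic reticulum, 3 were tested, *Sod3*, *Gpx3* and *Prdx4*, and all 3 rose. The other 4, *Gpx5*, *Gpx6*, *Gpx7* and *Gpx8*, had 0 to 4 reads. The call of *Prdx4* was lost without control replicate 2 or knockdown replicate 4. Of the 29 tested members with cytosolic products, 5 rose, 16 fell and 8 were not called, with a median of -0.21. Of 4 tested members with mitochondrial products, 1 fell and 3 were not called, with a median of -0.058. At the cell surface 3 were tested, of which *Ggt1* and *Ggt7* fell and *Ggt6* was not called. Of 3 tested members shared between cytosol and mitochondria 1 rose and 2 fell, and of 2 shared between nucleus and cytosol 1 rose. Of 3 tested in membranes 1 fell, as did the 1 in peroxisomes and 1 of 3 pseudogenes.

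**Figure D3:**
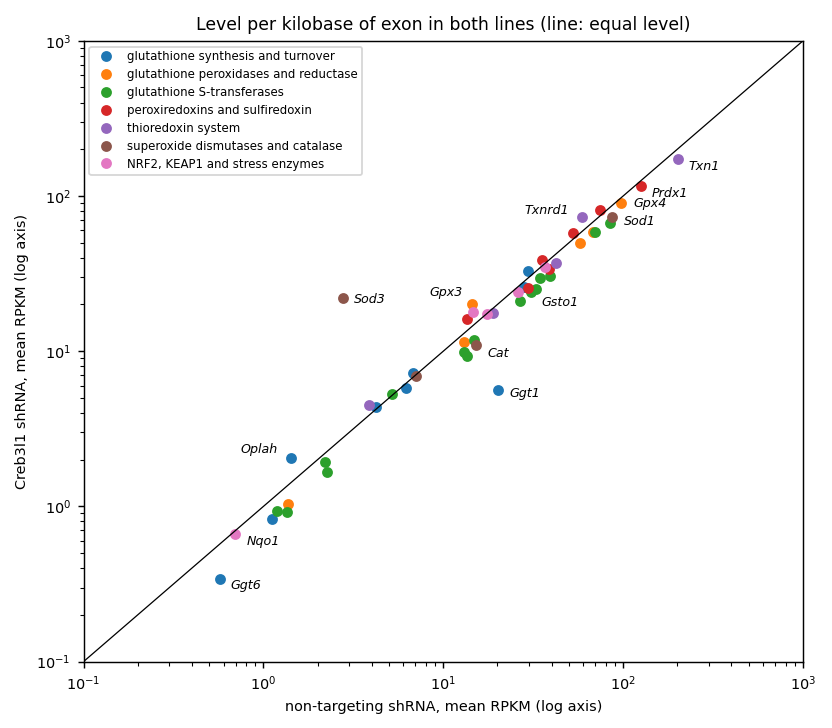
Mean level of the 51 tested members in both lines, in RPKM, which is scaled for exon length and library size, both axes logarithmic, coloured by role, with a line of equal level. *Sod3* lies above the line, at 2.76 in control and 22.1 in knockdown libraries, *Ggt1* lies below it, at 20.3 and 5.61, and the other members keep close to it.

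The order of the members by RPKM, which depends on annotated exon length, was led by the thiol systems of the cytosol. *Txn1* was first at 200.5 ± 6.2 RPKM in control libraries, at the 98.9th percentile of all genes tested, and *Prdx1* second at 125 ± 5.38. *Gpx4* at 96.8 ± 3.94, *Sod1* at 86.2 ± 3.27 and *Gstp1* at 84.7 ± 2.46 came next, and the last 2 of these did not differ beyond their spread. In knockdown libraries *Txn1* and *Prdx1* were still first and second, at 173 ± 3.08 and 116 ± 1.8. The lowest tested members were *Nqo1* at 0.7 ± 0.14 and *Ggt6* at 0.57 ± 0.19 RPKM in control libraries.

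The 20 members that were not tested had 0 to 19 reads in any library. *Gsta1*, *Gsta3*, *Gstk1*, *Gpx5* and *Prdx6-ps2* had no read in any library, where a count of 0 allows 3 reads, covering counting error only. *Gsta2*, *Gsta4*, *Gstm2-ps1*, *Gstt3*, *Gstt4*, *Mgst1*, *Gpx1*, *Gpx6*, *Gpx7*, *Gpx8*, *Ggt5*, *Prdx2-rs3* and *Prdx6b* stayed at 7 reads or fewer, and *Mgst2* had 1 to 14. The alpha class of transferases, which is typical of liver, was therefore nearly absent. *Gstm3* had 14, 6, 8, 5 and 19 reads in control and 3, 2, 0, 4 and 1 in knockdown libraries. It fell short of the filter, so it has no fold change here, although its lines did not overlap.

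*Gpx1* is the main cytosolic glutathione peroxidase of most cells, and its near absence stood out. It had 4, 0, 1, 3 and 3 reads in control and 1, 4, 6, 3 and 3 in knockdown libraries. Of its 998 75-base words, 0 occur in another annotated transcript. Copies outside the annotated transcripts were not searched. *Gpx1* lies on chromosome 9 (108338903 to 108340343, plus strand, GRCm38), and its coding neighbours were read after its own counts had been seen. In order along the chromosome, *Nicn1*, *Amt*, *Tcta*, *Rhoa*, *Gpx1*, *Usp4*, *1700102P08Rik*, *Ccdc36* and *BC048562* form a run of 9 genes between 108290429 and 108446086 in which no gene had more than 25 reads in any library of either line. *Rhoa*, the gene of a GTPase of the cytoskeleton that is active in nearly every cell type, had 2 to 15 reads, and *Usp4*, a deubiquitinase gene, had 11 to 25. On either side the counts returned at once, with a mean of 157 normalised counts in control and 191 in knockdown libraries for *Dag1* and of 613 and 625 for *Klhdc8b*. The same low counts were thus present in the control line. The state of this stretch of DNA in AtT20 cells was not measured.

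**Figure D4:**
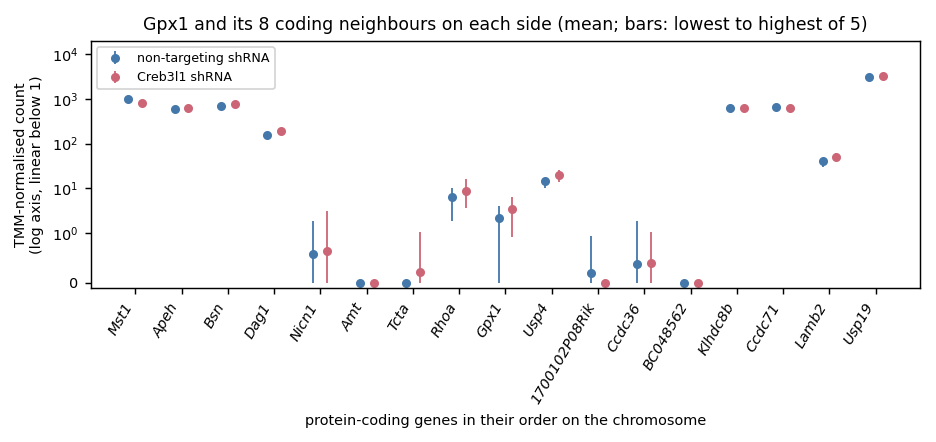
Mean normalised counts of *Gpx1* and 8 coding genes on each side in the order of the chromosome, with bars from the lowest to the highest of 5 libraries, on an axis that is logarithmic above 1 and linear below. The 9 genes from *Nicn1* to *BC048562* stay under 26 in both lines, and the 8 genes outside this run have means of 40.7 or more.

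Another 5 lists of redox genes that are not members were read in the same fit, and their counts stand beside the 40.7% of all genes tested that were called. In the list of NADPH supply, 9 of 15 tested genes fell and 0 rose, which is 60% called, with a median log2 fold change of -0.16. *G6pdx*, the glucose-6-phosphate dehydrogenase that opens the pentose phosphate pathway, went from 2937 ± 62.2 to 1374 ± 39.8 normalised counts (SD, n = 5), with a log2 fold change of -1.10 (SE 0.031, adjusted p = 1.3e-28). *Me1*, cytosolic malic enzyme, fell less (-0.39, adjusted p = 3.7e-14). The later genes of the pathway *Pgls* (-0.16), *Pgd* (-0.21) and *Taldo1* (-0.15) and the NAD kinase gene *Nadk* (-0.27) fell as well, whereas *Idh2* (-0.017, adjusted p = 0.67) and *Tkt* (-0.044, adjusted p = 0.16) were not called. With GC and length offsets *Pgls* (-0.0996, adjusted p = 0.013) and *Taldo1* (-0.051, adjusted p = 0.15) lost their call.

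In the list of NRF2 regulators and other NRF2 targets, 10 of 21 tested genes fell and 2 rose, which is 57.1% called against 40.7% of all genes tested, with a median of -0.15. The genes that rose were *Cul3* (0.30, adjusted p = 3.4e-10) and *Rbx1* (0.11, adjusted p = 0.0071), which with KEAP1 form the ubiquitin ligase that acts on NRF2. The call of *Rbx1* was lost under 7 of 17 alternatives (adjusted p from 0.010 to 0.030), namely DESeq2, GC and length offsets, and without control replicate 2, 3 or 4 or knockdown replicate 4 or 5. The largest decreases were in *Ephx1*, microsomal epoxide hydrolase (-0.76, adjusted p = 2.7e-22), and *Maff*, a small MAF protein that pairs with NRF2 (-0.67, adjusted p = 8.3e-13). The small MAF genes *Mafg* (0.021, adjusted p = 0.56) and *Mafk* (-0.16, adjusted p = 0.012) were not called. In control libraries *Mafg* had a mean of 4271 normalised counts and *Maff* of 547. The other genes of the list that fell were *Blvrb* (-0.65), *Osgin1* (-0.61), *Ugdh* (-0.29), *Ptgr1* (-0.23), *Cbr1* (-0.22), the ferritin gene *Ftl1* (-0.16), *Nfe2l1* (-0.15) and *Sqstm1* (-0.14). *Osgin1*, with 30.9 to 79.8 normalised counts, lost its call under 4 of 17 alternatives, DESeq2 among them. The call of *Ftl1* was lost with GC and length offsets (-0.030, adjusted p = 0.35).

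In the list of glutathione supply and use, 7 of 19 tested genes fell and 1 rose, which is 42.1% called and close to the 40.7% of all genes tested, with a median of -0.073. The increase was in *Chac1* (0.20, adjusted p = 5e-08), which degrades glutathione. The largest decreases were in genes with under 100 normalised counts, named after their values were seen. *Glrx*, glutaredoxin, which uses glutathione to reduce protein disulfides, had 71.4, 85.8, 68.5, 75.1 and 88.6 in control and 40.4, 36.4, 37.2, 37 and 32.7 in knockdown libraries. It was 2.12-fold lower without overlap, with a log2 fold change of -1.09 (SE 0.14, adjusted p = 3.6e-08), and the call held under all 17 alternatives. *Dpep1*, a dipeptidase that acts after gamma-glutamyl transferase, had -0.70 (adjusted p = 0.0082). That call was lost under 9 of 16 alternatives (adjusted p from 0.011 to 0.037), with DESeq2, with GC and length offsets and without control replicate 1, 2, 3 or 4 or knockdown replicate 2, 3 or 5. Among more abundant genes *Cth*, the enzyme that releases cysteine from cystathionine, fell (-0.36, adjusted p = 4.1e-15), as did *Hagh*, which frees glutathione in the glyoxalase pathway (-0.17, adjusted p = 0.00035). *Slc7a11*, the cystine transporter, was not called (-0.073, adjusted p = 0.12), and its partner chain *Slc3a2* fell slightly (-0.11, adjusted p = 2.4e-05). *Hagh* (-0.052, adjusted p = 0.26) and *Slc3a2* (-0.065, adjusted p = 0.015) lost their call with GC and length offsets. The decreases of *Glrx5* (-0.15, adjusted p = 0.0045) and *Anpep* (-0.11, adjusted p = 0.0072) were less stable. Their calls were lost under 7 and 11 of 17 alternatives, with DESeq2 and with GC and length offsets among them. With DESeq2, and without control replicate 2, knockdown replicate 3 or knockdown replicate 5, 5 genes of this list were called in place of 8.

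The list of methionine sulfoxide reductases and selenoprotein synthesis had 1 of 20 tested genes higher and 2 lower, which is 15% called against 40.7% of all genes tested, and a median of 0.013. *Sepsecs*, which makes selenocysteine on its tRNA, rose (0.31, adjusted p = 1.6e-07), and *Selenow* (-0.30) and *Msrb1* (-0.24) fell. The call of *Msrb1* was lost with GC and length offsets (-0.13, adjusted p = 0.089) and without knockdown replicate 5 (-0.19, adjusted p = 0.012), and *Selenow* was at -0.16 with the offsets. In the list of oxidant sources, 1 of 10 tested genes rose and 4 fell, which is 50% called against the same 40.7%, with a median of -0.18, and 11 genes of the list were not tested. *Ero1l*, the oxidase that passes electrons from disulfide formation in the endoplasmic reticulum to oxygen, went from 7328 ± 166 to 4314 ± 234 normalised counts (SD, n = 5), with a log2 fold change of -0.76 (SE 0.03, adjusted p = 7e-23). Its relative *Ero1lb* was not called (0.057, adjusted p = 0.53), and *Aox1* fell (-0.27, adjusted p = 0.00026). Without knockdown replicate 4, 3 genes of this list were called in place of 5.

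**Figure D5:**
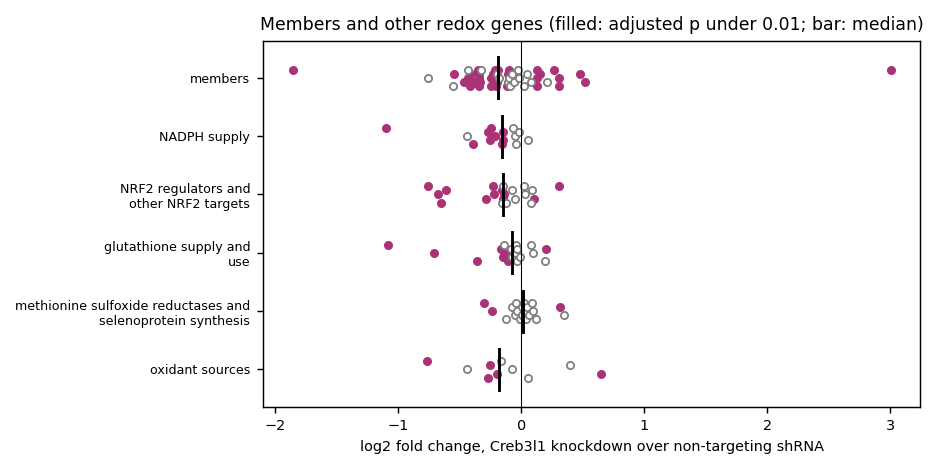
Log2 fold changes of the tested members and of the tested genes in 5 further redox lists, knockdown over control. Filled points have an adjusted p under 0.01, and the bar is the median, which lies at -0.19 for the members, -0.16 for NADPH supply and 0.013 for methionine sulfoxide reductases and selenoprotein synthesis.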

How the data were processed

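RNA of 5 control and 5 knockdown AtT20 libraries was measured by stranded, poly(A)-selected, paired-end sequencing. The authors trimmed the reads, aligned them to GRCm38 with STAR, obtained gene counts from featureCounts on Ensembl gene models, and deposited these raw counts. The strand setting of the counting is not given in the sources used here. From the counts, normalised counts and RPKM were computed with TMM library sizes and union exon lengths (GENCODE, GRCm38, an earlier annotation release than that of the authors). Genes passing filterByExpr were tested with edgeR 4.0.16 (R 4.3.3; quasi-likelihood, robust, no covariate) and adjusted by the Benjamini-Hochberg method at 0.01 over all genes tested. Each SE is the size of the log2 fold change over the root of the F value. The script was tested on simulated data. Replicates were numbered 1 to 5 within a line, and p-values cover only the spread between these libraries.

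The members and lists were chosen with earlier results of these data known. Values per library are given for members past 1.5-fold and 0.01 whose mean reached 50 normalised counts and for a fixed set of 19. In the lists, up to 2 increases and 2 decreases with a mean of at least 100 were named by rule, and further genes of the lists were picked with their values in view. Near-identical sequence was measured as 75-base words shared between annotated transcripts. Alternatives were DESeq2 1.42.0, RLE factors, library totals only, no filter, at least 10 counts in every library, a replicate block, GC and length offsets, omission of each library, a threshold of 0.05 and a limit of 1.5-fold. Depth was 17420698 to 22205107 counts per library.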

Additional observations from a re-analysis of the deposited data

Results flagged for a closer look

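For the 51 tested members, in each line of 5 libraries, the gap between the lowest or highest library and its neighbour was compared with Dixon's 95% critical value, which chance exceeds in about 1 of 20 such groups, or 5.1 of those examined here. It was exceeded in 3. *Gclm* had 709.99 normalised counts in control replicate 5, against 798 to 832 in the other control libraries. *Oplah* had 301 in knockdown replicate 3, against 213 to 237. *Prdx4* had 2648 in knockdown replicate 4, against 2382 to 2424. Causes were not tested.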

How the results depend on the processing

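Of the 34 members called, 29 kept their call and direction under all 17 alternative fits, and 5 (*Ggt7*, *Gpx4*, *Gsto2*, *Gstp-ps* and *Prdx4*) lost a call or direction under some. With a limit of 1.5-fold, 2 members were called, 1 higher and 1 lower. At an adjusted p under 0.05, 41 of the 51 tested members were called, where 7209 of the 14336 genes tested in all were. With the replicate number as a block 34 members were called, 10 higher and 24 lower, and no call of a member changed. The labels' numbers pair no libraries (correlations of deviations from -0.0647 to 0.0401). With each library left out in turn, 31 to 36 members were called, 9 to 11 higher and 21 to 25 lower. Called genes then numbered 5 to 9 for glutathione supply and use (DESeq2: 5) and 3 to 6 for oxidant sources. Directions turned for members that were not called or were small. With GC and length offsets these were *Gpx4* (0.024) and *Keap1* (0.023). With a library left out these were *Gstm7* (-0.059 to 0.089) and *Nqo1* (-0.14 to 0.047), and the cause was not tested. Genes with few reads, such as *Nqo1* and *Ggt6*, are limited by depth.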
